A study of Mus musculus with 16 samples.

Results

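The change in whole brown adipose tissue between postnatal day 10 (P10) and 4 weeks of age (4W) was read from 6 of the 16 arrays of a time course, 3 at each of these ages, chosen by the age in their labels and by no measured value. Brown adipose tissue is the fat depot that oxidises lipid to make heat. The mice were of the strain C57BL6/N at every age, and no other genotype or treatment is named in the labels. The other arrays came from embryonic day 18 (E18), postnatal day 4 (P4) and 8 weeks (8W), and are used here for the spread and for levels before and after the interval. Each array measured Cy3-labelled total RNA from the whole depot. The labels give neither sex, diet, age at weaning nor time of day, and they do not say whether an array is 1 animal or a pool, so p-values reflect no more than how these arrays differ, and that may be technical.

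In a mouse litter, day 10 lies in the suckling period, when the pups live on milk that is rich in fat, and at 4 weeks the mice eat solid food that is rich in carbohydrate. Brown adipocytes take up fatty acids and glucose, store fat in many small droplets and burn it in mitochondria uncoupled by Ucp1. They can also make fatty acids from glucose through citrate, acetyl-CoA and malonyl-CoA, a path controlled by the transcription factors Srebf1 and Mlxipl.

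All levels below are processed signals divided by the 75th percentile of their own array, so that 1 equals that percentile. Levels of different genes come from different probes and are not compared with each other. A change is the log2 level at 4W minus that at P10 in a limma fit over all 16 arrays, ± its standard error (SE), with n = 3 arrays at each age, and "rose" and "fell" mean a Benjamini-Hochberg adjusted p under 0.05 over the 15832 autosomal genes tested. Over all non-control spots of an array the 75th percentile was 571 to 750 intensity units at P10 and 523 to 613 at 4W. Of all non-control probes, 59.3% to 71.9% and 47.8% to 53.5% were well above background at these ages. The median SD of a gene was 0.125 (log2) at P10 and 0.097 at 4W.

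Most measured genes differed between the 2 ages. Among changes of at least 2-fold, falls outnumbered rises, an order that turned with scaling by the array median (1609 rises and 913 falls), with normexp background correction (627 and 564) and with only probes above background on every array (611 and 573). By limma, 9121 of 15832 genes passed (57.6%), of which 4886 rose (30.9%) and 4235 fell (26.7%). At least a 2-fold rise was found in 812 genes (5.13%) and at least a 2-fold fall in 1545 (9.76%). In 9672 genes all arrays of 1 age lay above all those of the other (61.1%). These shares are to be read beside every count of list members below, and the median change over all genes was -0.011. The lists and members were chosen with earlier results of these data known. A count above these shares is therefore a description and no test.

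The split into rises and falls depended on how the arrays were scaled. Of the called genes 53.6% rose with scaling by the 75th percentile, 48.2% (4083 up, 4382 down) with quantile normalization and 47.3% (3990 up, 4449 down) in the deposited series matrix, which is itself quantile normalized. With scaling by the array median 76.6% of the called genes rose (6550 up, 2006 down), and the median change of all genes was 0.30 instead of -0.011, so a gene, and each list median below, has to be read against that shift. The median signal itself was 64.8 to 69.8 intensity units on the P10 arrays and 46.2 to 51.5 on the 4W arrays.

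The 2 ages were not spread evenly over the 2 slides. All 3 4W arrays and P10 replicate 1 were on slide 2, and P10 replicates 2 and 3 were on slide 1. With slide as a term in the fit 4528 genes rose and 3718 fell. Within slide 2, where 1 P10 array is compared with the 4W arrays and is assumed to vary like the other ages, 3561 rose and 2998 fell. There the choice of scaling moved the split little: scaling by the array median, an alternative added after the data were seen, gave 3331 and 2804. Each list below is given with its median under both slide settings.

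**Figure D1:**
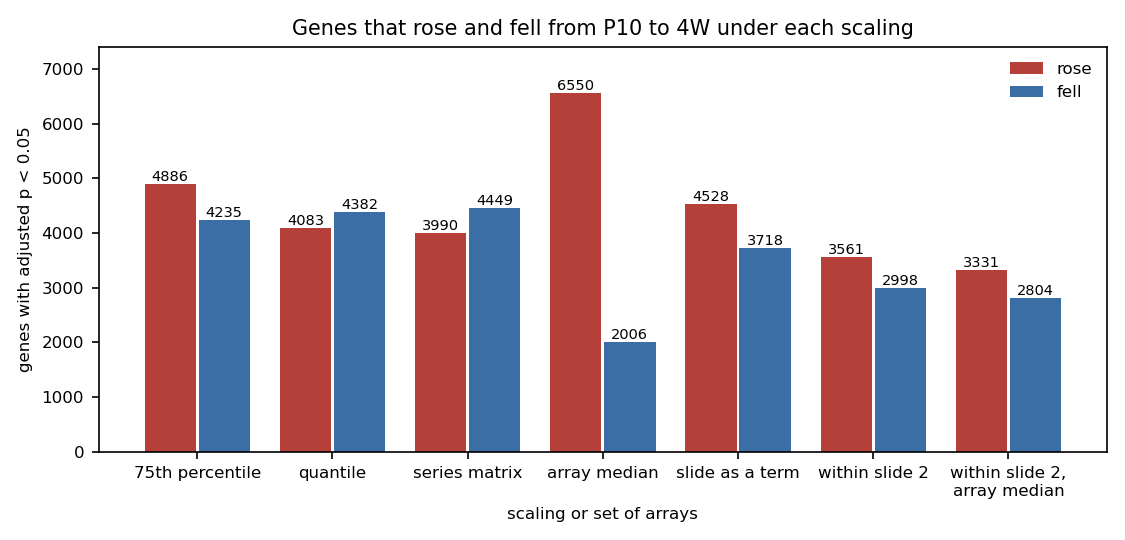
Number of genes (vertical axis) that rose (red) and fell (blue) from P10 to 4W at a limma adjusted p under 0.05, for 7 ways of scaling the arrays or choosing them (horizontal axis). The array median gave 6550 rises against 2006 falls over all arrays, and 3331 against 2804 within slide 2.

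The 2 ages also differed in transcripts that mark sex, and X- and Y-linked genes were left out of every test. Xist, the transcript through which female cells shut down an X chromosome, had levels of 2.08, 2.14 and 2.03 on the P10 arrays and of 0.017, 0.017 and 0.011 on the 4W arrays, where it was not well above background. The Y-linked Ddx3y had 0.0080, 0.0075 and 0.011 at P10 against 5.17, 4.35 and 5.06 at 4W. Eif2s3y had 0.029, 0.038 and 0.023 at P10 against 8.52, 9.30 and 9.66 at 4W. Uty was an exception on P10 replicate 3, where it was 0.541 against 0.0097 and 0.012 on the other P10 arrays and 0.149 to 0.173 at 4W, and Kdm5d was not well above background on any of these arrays. By Xist, Ddx3y and Eif2s3y all 3 P10 arrays carried the female pattern and all 3 4W arrays the male pattern, so age and sex cannot be told apart in this comparison for any autosomal gene. On the arrays of E18, P4 and 8W, Ddx3y was 4.43 to 5.77 and Xist at most 0.176, the male pattern. P10 was thus the only age with the female pattern, and the same limit holds wherever P10 is set against another age below.

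The tissue label was checked against the markers of brown fat. Ucp1, the uncoupling protein itself, had levels of 586, 737 and 748 on the P10 arrays and 632, 689 and 751 on the 4W arrays, the arrays of the 2 ages overlapped, and it did not pass (log2 0.005 ± 0.16, limma adjusted p = 0.98). None of the 27 measured genes of the thermogenic list was below background on all P10 arrays, and 1 was on all 4W arrays. Markers of striated muscle were also measured at both ages, and they are described with the other cell types below. In whole tissue, more cells of a type and more RNA per cell cannot be told apart.

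Fatty acid synthesis was the group of fuel genes with the largest rise. Of its 21 measured genes, 17 rose, 15 of them by at least 2-fold, 2 fell and 2 did not pass, with a median log2 change of 1.63 (1.54 with slide as a term and 1.57 within slide 2). Fasn, the fatty acid synthase that builds palmitate, had levels of 0.543, 0.514 and 0.482 on the P10 arrays and 20.9, 25.2 and 24.9 on the 4W arrays. Acaca, the carboxylase that makes malonyl-CoA, had 21.6, 19.4 and 18.9 on the P10 arrays and 203, 204 and 227 on the 4W arrays. Acly, which splits citrate into acetyl-CoA, had 32.4, 31.7 and 33.5 on the P10 arrays and 188, 203 and 172 on the 4W arrays. In all of these enzymes every 4W array lay far above every P10 array, and the 3 arrays of an age lay close together. The rises were 46.0-fold for Fasn (log2 5.52 ± 0.08), 10.6-fold for Acaca (log2 3.40 ± 0.084) and 5.75-fold for Acly (log2 2.52 ± 0.093), each with a limma adjusted p of 1.3e-10 or below.

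The enzymes that work on the new fatty acid and those that supply its reducing power moved the same way. Scd1, the desaturase that makes oleate, had levels of 13.6, 13.7 and 13.0 on the P10 arrays and 263, 294 and 262 on the 4W arrays, a rise of 20.3-fold (log2 4.34 ± 0.057). Scd2, a related desaturase, rose 1.59-fold. Scd3 rose 25.6-fold at the probe used, but its probes were called in both directions, and in the series matrix its change was a fall (log2 -0.13). Elovl6, which lengthens palmitate, rose 4.65-fold, with 4W replicate 2 lower (36.4) than the other two. Me1, the malic enzyme that makes NADPH, had 5.78, 5.07 and 5.05 on the P10 arrays and 44.8, 50.1 and 42.1 on the 4W arrays and rose 8.61-fold. Slc25a1, which exports citrate from mitochondria, rose 4.03-fold, Pnpla3, a lipid droplet acyltransferase and lipase, 4.11-fold, and Acss2, which activates acetate, 2.09-fold.

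The regulators of the pathway rose with it. Srebf1, which drives lipogenic genes under insulin, had levels of 1.37, 1.25 and 1.20 on the P10 arrays and 6.62, 7.46 and 7.05 on the 4W arrays and rose 5.54-fold (log2 2.47 ± 0.1). Mlxipl, the carbohydrate-responsive factor ChREBP, had 33.9, 26.3 and 26.5 on the P10 arrays and 94.5, 84.7 and 87.5 on the 4W arrays and rose 3.10-fold (log2 1.63 ± 0.11). Insig1, which holds SREBP precursors in the endoplasmic reticulum, rose 2.80-fold, and Thrsp, a thyroid- and carbohydrate-responsive lipogenic protein, 1.98-fold. All of these rises had limma adjusted p of 3.5e-08 or below.

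The 2 falls in the list were in desaturases of polyunsaturated fatty acids. Fads1 had levels of 0.609, 0.572 and 0.589 on the P10 arrays and 0.340, 0.317 and 0.369 on the 4W arrays and fell 1.73-fold (log2 -0.79 ± 0.079, limma adjusted p = 2.0e-06). Fads2 had 0.0725, 0.0871 and 0.0784 on the P10 arrays and 0.0217, 0.0241 and 0.0304 on the 4W arrays, was not well above background on any 4W array, and was at least 1.35-fold lower at 4W, a call that ended with normexp background correction. The P10 arrays lay above the 4W arrays in both genes. Elovl5, an elongase of polyunsaturated fatty acids, and Pklr, a pyruvate kinase, did not pass (log2 0.039 and -0.50).

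Levels at the other ages, all with the male pattern, place P10 near the low point of Fasn, Acaca and Scd1. From E18 through P4, P10 and 4W to 8W, Fasn averaged 3.43, 0.321, 0.513, 23.6 and 67.6. Acaca went through 47.8, 12.3, 19.9, 211 and 467 at the same ages, and Scd1 through 46.6, 5.35, 13.4, 273 and 463. The 4W mean was thus above every earlier mean and below the 8W mean in these genes. Srebf1 differed at the end: it averaged 7.03 at 4W and 3.23 at 8W. Not every member was low at P10: Elovl6 averaged 5.02 at E18 and 10.3 at P10, and Mlxipl 21.2 at E18, 21.6 at P4 and 28.7 at P10.

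**Figure D2:**
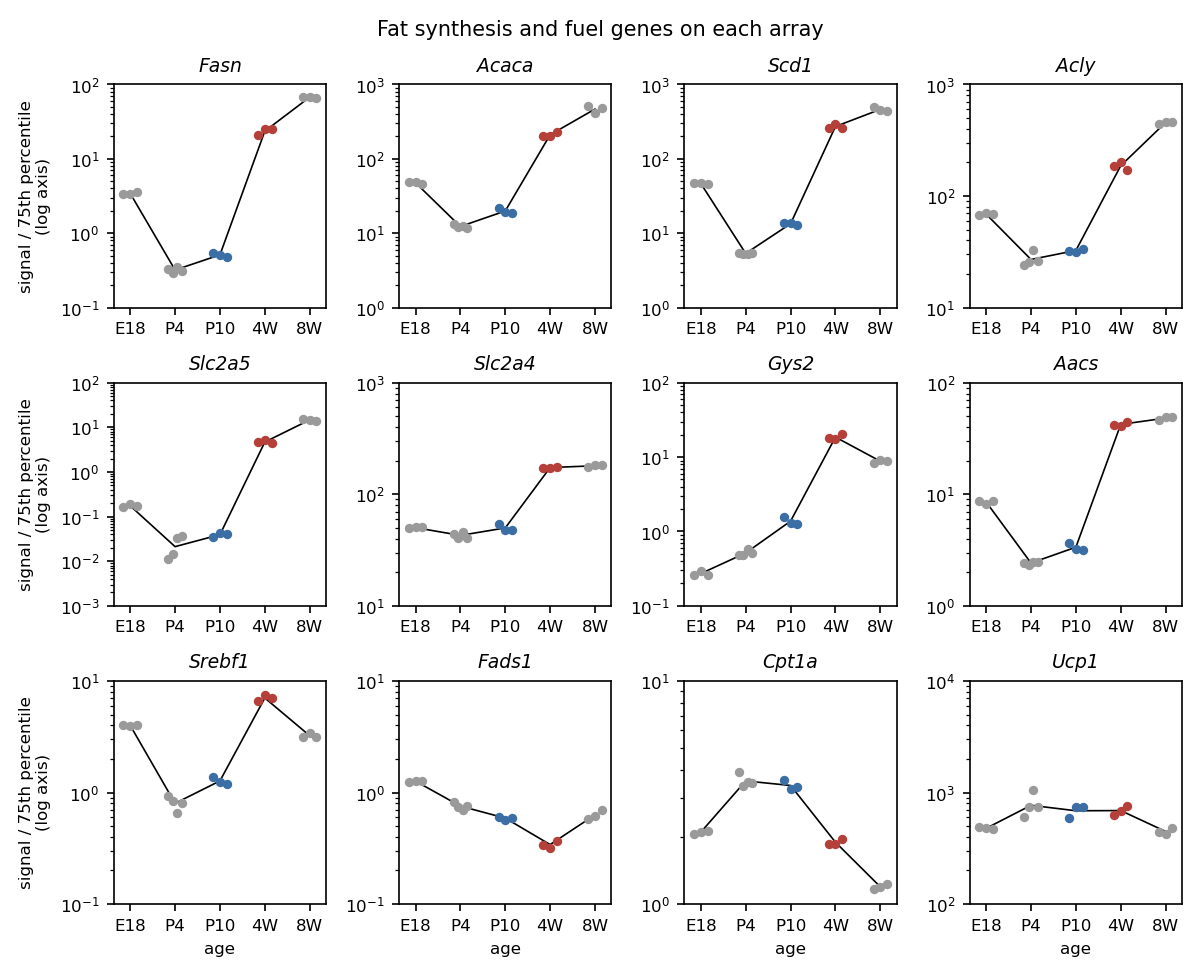
Level of 12 genes on each of the 16 arrays (vertical log axis, signal divided by the array's 75th percentile) by age (horizontal axis). Points are arrays, blue for P10, red for 4W and grey for other ages, and lines join the age means of the log2 levels. Fasn, Acaca, Scd1, Acly, Slc2a5, Slc2a4, Gys2, Aacs and Srebf1 are higher at 4W, Fads1 and Cpt1a lower, and Ucp1 overlaps.

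Glucose uptake and glycolysis rose as well, by less per gene. Of 23 measured genes 19 rose and none fell, 4 did not pass, and the median log2 change was 0.59 (0.59 with slide as a term and 0.56 within slide 2, but 0.33 with quantile normalization and 0.90 when scaled by the array median). Slc2a5, the fructose transporter, changed most in this list, with levels of 0.0353, 0.0426 and 0.0407 on the P10 arrays and 4.60, 5.11 and 4.39 on the 4W arrays. It was well above background on 2 of 3 P10 arrays and on all 4W arrays, and it rose 119-fold (log2 6.89 ± 0.35). Khk, the kinase that takes fructose into metabolism, had 10.3, 9.43 and 9.34 on the P10 arrays and 11.2, 11.3 and 11.5 on the 4W arrays and rose only 1.17-fold (limma adjusted p = 0.01). It did not pass with quantile normalization, in the series matrix or under either slide setting.

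Slc2a4, the insulin-responsive glucose transporter, had levels of 54.3, 47.7 and 48.1 on the P10 arrays and 172, 173 and 176 on the 4W arrays, a rise of 3.48-fold (log2 1.80 ± 0.061). Hk2, the hexokinase that traps glucose in insulin-sensitive tissues, had 7.10, 5.83 and 5.67 on the P10 arrays and 22.3, 24.1 and 24.1 on the 4W arrays and rose 3.80-fold. The 4W arrays lay above the P10 arrays in both. Pfkl, a subunit of phosphofructokinase, rose 2.86-fold, Pfkfb3, which makes its activator, 2.42-fold, and Aldoc, an aldolase, 1.99-fold. Slc2a1, the basal glucose transporter, rose 1.87-fold, while Hk1, Slc2a3 and Pfkfb2 did not pass (log2 -0.0065, 0.14 and 0.18). The summed level of the 29 skeletal muscle markers, a tissue rich in glycolytic enzymes, was 251 to 282 at P10 and 508 to 521 at 4W, and its part in these changes was not tested.

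Genes of glycogen and glycerol metabolism followed, with 19 of 21 up, 1 down and a median of 0.74 (0.70 with slide as a term and 0.73 within slide 2). Gys2, the liver-type glycogen synthase, had levels of 1.59, 1.31 and 1.25 on the P10 arrays and 17.8, 17.8 and 20.2 on the 4W arrays and rose 13.5-fold (log2 3.75 ± 0.1). Pygl, the liver-type phosphorylase that breaks glycogen down, had 13.1, 11.8 and 12 on the P10 arrays and 126, 149 and 141 on the 4W arrays and rose 11.2-fold (log2 3.49 ± 0.063). Synthesis and breakdown genes therefore rose side by side. Gbe1, which branches glycogen, rose 2.88-fold, Ppp1r3b, which targets a phosphatase to it, 2.49-fold, and Pygm, the phosphorylase that muscle uses, 2.49-fold. Pgm2 fell 1.64-fold, except with scaling by the array median, and Aqp7, the glycerol channel, did not pass (log2 0.056).

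The supply of NADPH and of mitochondrial acetyl-CoA shared this direction in part. In the pentose phosphate and NADPH list 11 of 15 genes rose and 2 fell (median 0.59, 0.65 with slide as a term and 0.61 within slide 2), led after Me1 by Aldh1l1, a folate enzyme, at 6.31-fold and H6pd, which makes NADPH in the endoplasmic reticulum, at 4.54-fold. Pgd rose 2.46-fold and Tkt 2.30-fold, both of the pentose phosphate path. In the TCA cycle and pyruvate list 15 of 28 genes rose and 3 fell, and its median of 0.26 (0.24 with slide as a term and 0.22 within slide 2) was -0.018 with quantile normalization. The balance turned with the scaling: 9 rose and 10 fell with quantile normalization, 9 and 12 in the series matrix, and 20 and 0 when scaled by the array median. Its largest rises were Dlat (2.14-fold) and Pdhx (2.01-fold), subunits of pyruvate dehydrogenase. Pdk4, the kinase that shuts that complex, fell 1.25-fold, though not within slide 2 or with scaling by the array median.

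Triglyceride assembly and lipid droplet genes rose in 25 of 28 cases, and none fell (median 0.79, 0.71 with slide as a term and 0.66 within slide 2). The largest rises were Cideb, a lipid droplet protein (4.49-fold), Mogat2 and Mogat1, which add an acyl chain to monoacylglycerol (3.28-fold and 2.83-fold), Lpin1, a phosphatidate phosphatase (2.97-fold), G0s2, an inhibitor of fat breakdown (2.75-fold), and Plin4, a droplet coat protein (2.65-fold). Genes of fat breakdown rose too: Abhd5, the activator of the first lipase, 2.61-fold, Lipe, hormone-sensitive lipase, 2.17-fold, and Pnpla2, the first lipase, 1.41-fold. Fitm1, Hilpda and Lpin2 did not pass (log2 0.52, -0.07 and -0.12).

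Uptake of fatty acids and lipoproteins showed the same balance, with 16 of 22 genes up and 2 down (median 0.78, 0.76 with slide as a term and 0.74 within slide 2). Angptl8, an insulin-induced regulator of lipoprotein lipase, rose 4.21-fold, Apoe, a lipoprotein component, 3.42-fold, and Slc27a2, an acyl-CoA synthetase that brings in fatty acids, 3.02-fold. Lpl, the lipase that frees fatty acids from circulating fat, rose 1.74-fold, and Cd36, a fatty acid translocase, 1.79-fold. Gpihbp1, which holds Lpl on the capillary wall, fell 1.16-fold, in the direction of most endothelial markers below, but its call ended within slide 2, with normexp correction and with scaling by the array median.

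Genes of fatty acid oxidation had no direction that held under every scaling. Of 26 genes 8 rose, 2 fell and 16 did not pass, and the median of 0.12 (0.14 with slide as a term and 0.10 within slide 2) turned to -0.14 with quantile normalization and in the series matrix, and was 0.43 with scaling by the array median. With quantile normalization 5 rose and 9 fell, in the series matrix 4 and 12, and with the array median 18 and 1. Cpt1a, the liver-type gate for fatty acids into mitochondria, had levels of 3.6, 3.27 and 3.34 on the P10 arrays and 1.86, 1.87 and 1.96 on the 4W arrays and fell 1.80-fold (log2 -0.84 ± 0.056, limma adjusted p = 3.4e-08). Its muscle-type counterpart Cpt1b did not pass (log2 0.043). Acot11, a thioesterase, went the other way, with 11.4, 9.97 and 10.1 on the P10 arrays and 61.4, 54.8 and 57.7 on the 4W arrays and a rise of 5.53-fold.

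Ketone body genes moved in both directions. Aacs, which turns acetoacetate into acetyl-CoA for lipid synthesis, had levels of 3.69, 3.25 and 3.14 on the P10 arrays and 41.8, 41.1 and 44.1 on the 4W arrays and rose 12.6-fold (log2 3.66 ± 0.059). Oxct1, which burns ketone bodies, rose 1.80-fold, Acat1, which also serves that path, fell 1.21-fold (not with scaling by the array median, within slide 2 or in a fit of the 6 arrays alone), and Slc16a6, a ketone body carrier, fell 1.93-fold. Over the list 5 of 10 genes rose and 2 fell (median 0.45, 0.51 with slide as a term and 0.60 within slide 2).

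Cholesterol genes also split, with 13 of 22 up and 5 down (median 0.49, 0.32 with slide as a term and 0.39 within slide 2). Sc5d, late in sterol synthesis, rose 4.74-fold, and Fdft1, the squalene synthase, 4.00-fold. Hmgcs1 and Sqle, early enzymes of sterol synthesis, fell 1.23-fold and 1.39-fold, and Stard4, a sterol carrier, 2.00-fold. The calls of Hmgcs1 and Sqle were lost with scaling by the array median.

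In the amino acid list, which holds enzymes of breakdown and of synthesis and transporters, 24 of 34 genes rose and 4 fell (median 0.56, 0.56 with slide as a term and 0.56 within slide 2). Glul, glutamine synthetase, had levels of 26.1, 26.6 and 26.3 on the P10 arrays and 169, 178 and 169.9 on the 4W arrays and rose 6.54-fold (log2 2.71 ± 0.064). The transporters Slc1a5 and Slc1a3 rose 3.69-fold and 3.59-fold, the aminotransferases Gpt2 and Got1 3.09-fold and 2.24-fold, and Bcat2, which starts the breakdown of branched-chain amino acids, 2.18-fold. The falls were in Abat (1.98-fold), in Psat1 and Asns, which make serine and asparagine (1.74-fold and 1.49-fold), and in Bckdhb (1.28-fold). The calls of Asns and Bckdhb were lost with scaling by the array median, that of Asns also within slide 2 and in a fit of the 6 arrays alone.

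The thermogenic genes rose in number, without Ucp1. In that list 17 of 27 genes rose and 2 fell, with a median of 0.52 (0.54 with slide as a term and 0.49 within slide 2). Elovl3, an elongase strongly tied to active brown fat, had levels of 0.0841, 0.118 and 0.0810 on the P10 arrays and 0.811, 0.866 and 0.820 on the 4W arrays and rose 8.95-fold (log2 3.16 ± 0.12). Adrb3, the receptor through which noradrenaline reaches the adipocyte, had 10.0, 7.62 and 7.57 on the P10 arrays and 46.5, 41.0 and 46.6 on the 4W arrays and rose 5.35-fold (log2 2.42 ± 0.1). The 2 ages did not overlap in either gene. Pank1, of coenzyme A synthesis, rose 2.36-fold, Kcnk3, a potassium channel, 2.28-fold, and Otop1, a proton channel, 1.78-fold.

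Regulators of the brown fat programme moved by less than 2-fold and in both directions. Dio2, which turns thyroxine into active thyroid hormone inside the cell, had levels of 2.14, 2.03 and 2.07 on the P10 arrays and 3.67, 3.54 and 3.36 on the 4W arrays and rose 1.69-fold (log2 0.76 ± 0.057). Ppargc1a, the coactivator of mitochondrial genes, had 11.8, 10.8 and 11.3 on the P10 arrays and 9.07, 7.76 and 8.74 on the 4W arrays and fell 1.33-fold (log2 -0.41 ± 0.057). Ebf2, a factor of brown fat identity, had 8.24, 8.14 and 7.96 on the P10 arrays and 6.38, 5.21 and 5.83 on the 4W arrays and fell 1.40-fold. The falls of Ppargc1a and Ebf2 and the rise of Dio2 were each seen on all 3 4W arrays, but the calls of Ppargc1a and Ebf2 ended with scaling by the array median. Prdm16, Zic1, Lhx8 and Esrra, other factors of this fat, rose 1.43-fold, 1.57-fold, 1.75-fold and 1.57-fold. At P4 the mean levels of Dio2 and Ppargc1a had been 16.1 and 76.1, against 2.08 and 11.3 at P10, ages that also differed in the sex pattern.

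Transcripts of a receptor and of a cyclase of adrenergic signalling rose, and signalling itself was not measured. In the adrenergic and cAMP list 17 of 31 genes rose and 4 fell (median 0.26, 0.37 with slide as a term and 0.27 within slide 2). The summed level of the list was 964 to 1049 at P10 and 952 to 1004 at 4W. Next to Adrb3, the adenylyl cyclase gene Adcy3 rose 4.95-fold, Adra2c, an inhibitory receptor, 2.46-fold and Pde3b, a phosphodiesterase under insulin control, 2.25-fold. Pde4b, another phosphodiesterase, fell 3.72-fold.

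Structural genes of the mitochondrion moved little. No subunit of the respiratory chain changed by 2-fold: 19 of 48 rose, 29 did not pass and none fell, with a median of 0.16 (0.17 with slide as a term and 0.12 within slide 2). The direction turned with the scaling. With quantile normalization 2 rose and 16 fell (median -0.084), in the series matrix 1 rose and 22 fell (median -0.11), and with the array median 36 rose (median 0.47). Cox6a2, the subunit of heart, muscle and brown fat, rose most (1.73-fold), and Cox7a1, another tissue form, did not pass (log2 -0.19). Mitochondrial ribosome and import genes rose in 29 of 34 cases, all by less than 2-fold (median 0.42, 0.38 with slide as a term and 0.31 within slide 2, and 0.18 with quantile normalization, where 18 rose and 4 fell; 16 rose in the series matrix), led by Mrps15 (1.91-fold) and Tfb2m (1.77-fold), a mitochondrial transcription factor.

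Mitochondrial carriers and the genes of calcium and creatine cycles had no common direction, with 9 of 16 up and 6 down (median 0.30, 0.26 with slide as a term and 0.16 within slide 2). Ryr1 and Atp2a1, the calcium channel and pump of striated muscle, rose 3.23-fold and 2.50-fold, in the direction of the muscle markers below. Slc25a25, a mitochondrial ATP carrier, fell 2.96-fold, Ucp2 2.05-fold and Gatm, which starts creatine synthesis, 1.99-fold.

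Genes shared by all fat cells rose in 20 of 28 cases and fell in 1, Nnat, whose call ended with scaling by the array median (median 0.59, 0.57 with slide as a term and 0.54 within slide 2). With quantile normalization the median was 0.34 and 3 genes fell, and in the series matrix 0.28 and 4. Cebpa, a factor of adipocyte differentiation, rose 1.95-fold, and Fabp4, a fatty acid carrier of fat cells, did not pass (log2 0.16), though it did as a rise with slide as a term (log2 0.44), within slide 2 (0.39) and with scaling by the array median (0.47). Car3, an abundant carbonic anhydrase of fat and muscle, rose 2.12-fold. Of the hormones of fat cells in this list, Lep and Retn rose more, and Adipoq did not. Lep, the satiety hormone, had levels of 0.146, 0.173 and 0.166 on the P10 arrays and 0.895, 0.855 and 0.883 on the 4W arrays and rose 5.44-fold (log2 2.44 ± 0.1), Retn, resistin, had 7.25, 5.43 and 5.48 on the P10 arrays and 46.4, 45.4 and 43.5 on the 4W arrays and rose 7.52-fold (log2 2.91 ± 0.094), and Adipoq, adiponectin, had 155, 149 and 146 on the P10 arrays and 267, 256 and 302 on the 4W arrays and rose 1.83-fold. All 3 4W arrays were higher in each. Retn had averaged 101 at E18, so its 4W level was not its peak.

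Among secreted factors 16 of 27 genes rose and 5 fell (median 0.64, 0.79 under either slide setting). Cxcl14, a chemokine released by brown fat, had levels of 0.268, 0.259 and 0.272 on the P10 arrays and 5.89, 4.79 and 5.95 on the 4W arrays and rose 20.7-fold (log2 4.37 ± 0.39). Nrg4, a growth factor of brown fat, rose 3.03-fold and Nampt, which makes a precursor of NAD, 2.35-fold. The fall of Igf2 is given with the imprinted genes.

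**Figure D3:**
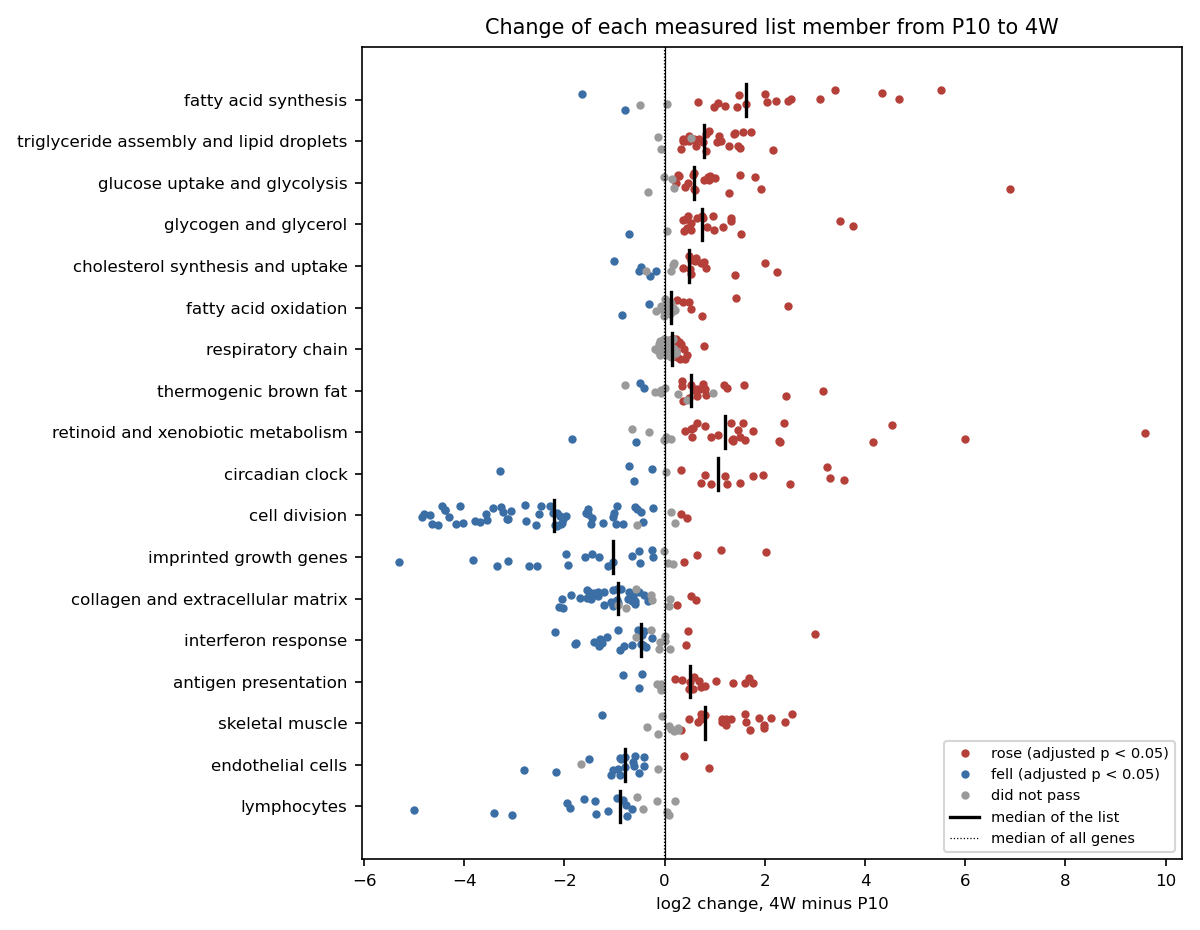
Log2 change from P10 to 4W (horizontal axis) of every measured member of 18 gene lists (vertical axis). Points are genes, red where they rose, blue where they fell and grey where they did not pass, black bars are list medians, and the dotted line is the median of all genes at -0.011. The medians run from -2.21 for cell division to 1.63 for fatty acid synthesis.

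Cell division was the list with the lowest median of those described here. Of 58 measured genes 53 fell, 45 by at least 2-fold, 2 rose and 3 did not pass (median -2.21, -2.27 with slide as a term and -2.32 within slide 2). With 10 of the 11 genes that were below background on all 4W arrays at their bound, the median was -2.13. Mki67, the nuclear marker of dividing cells, had levels of 9.55, 8.65 and 8.63 on the P10 arrays and 0.371, 0.352 and 0.354 on the 4W arrays and fell 24.9-fold (log2 -4.64 ± 0.079). Ccnb2, a mitotic cyclin, had 4.16, 3.59 and 3.68 on the P10 arrays and 0.245, 0.214 and 0.244 on the 4W arrays and fell 16.3-fold. Cdk1, its kinase, had 1.12, 1.18 and 1.04 on the P10 arrays and 0.0487, 0.0627 and 0.0594 on the 4W arrays. It fell 19.7-fold, but it was not well above background on 4W replicate 1. Every P10 array lay above every 4W array in these genes, with limma adjusted p of 3.9e-10 or below.

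Other members showed falls of different size. Prc1, which bundles the central spindle of dividing cells, fell 25.8-fold, and Kif23 and Melk, not well above background on any 4W array, were at least 9.97-fold and 10.2-fold lower. Tk1, of nucleotide supply, had 4.13, 3.66 and 3.57 on the P10 arrays and 0.155, 0.164 and 0.172 on the 4W arrays and fell 23.2-fold, and Top2a, the topoisomerase of chromosome condensation, was at least 12.6-fold lower. Ccnd1, the cyclin that answers to growth factors, had 11.5, 11 and 10.6 on the P10 arrays and 1.22, 1.23 and 1.32 on the 4W arrays and fell 8.79-fold. Of the genes that serve DNA replication, Mcm5 fell 4.53-fold, Mcm2 2.77-fold and Pcna 1.51-fold, the last not with scaling by the array median.

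Promoters of cell division genes are shown because most members of the list fell. CCAAT boxes (CCAAT, bound by NF-Y) and CHR elements (TTTGAA or TTCGAA, bound by the DREAM and MuvB complexes) are known elements of genes expressed late in the cycle. Windows from 250 bases before to 50 after the start were matched for 47 of the 58 genes, 52 windows in RefSeq on GRCm38.p6, and searched on both strands. A CCAAT box was found in 75% of these windows against 37.4% of all 32851 promoters, a CHR in 48.1% against 19.2%, and both in 48.1% against 7.52%. Among promoters of all genes tested the 3 shares were 37%, 14.8% and 5.9%. CCAAT boxes were as frequent in lists that did not fall, 83.3% for antigen presentation, 76.5% for cholesterol genes and 75% for the clock. Of these windows 5.56%, 5.88% and 0% held a CHR. In some short lists a CHR was also frequent: 60% (3 of 5 windows) for thymus stroma, 41.7% (5 of 12) for fetal regulators. Both motifs were in at most 25% of the windows of any other list. The stretch from 120 bases before to 10 after the start is given 5′ to 3′ on the gene's strand, with both motifs in capitals on either strand, for Ccnb2 (chr9:70421545-70421674, minus strand), Cdk1 (chr10:69352903-69353032, minus strand) and Prc1 (chr7:80294331-80294460, plus strand).
Ccnb2: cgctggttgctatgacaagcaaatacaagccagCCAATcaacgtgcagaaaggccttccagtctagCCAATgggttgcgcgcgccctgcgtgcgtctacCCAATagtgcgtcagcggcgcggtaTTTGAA
Cdk1: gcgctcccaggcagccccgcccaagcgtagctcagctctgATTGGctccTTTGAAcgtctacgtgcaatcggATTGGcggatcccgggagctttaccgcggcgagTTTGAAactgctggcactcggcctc
Prc1: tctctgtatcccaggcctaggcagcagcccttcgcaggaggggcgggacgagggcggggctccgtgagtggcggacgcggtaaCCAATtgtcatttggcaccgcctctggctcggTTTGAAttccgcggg
In Ccnb2 the CCAAT boxes begin at -87, -54 and -21 and a CHR at 5, counted from the start. In Cdk1 a CHR lies between the 2 CCAAT boxes at -80 and -48 and another follows at -15, and Prc1 has 1 of each, at -37 and -5. For Prc1, 1 of 2 windows in the table was used. A match is a description of letters and shows no binding.

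Inhibitors of the cycle were divided, with 9 of 19 up and 6 down (median 0.12, 0.14 with slide as a term and 0.15 within slide 2, and -0.019 with quantile normalization). Gadd45b had levels of 0.361, 0.434 and 0.420 on the P10 arrays and 2.30, 2.48 and 2.48 on the 4W arrays and rose 5.99-fold, Cdkn1c, which encodes p57, had 5.57, 4.77 and 4.71 on the P10 arrays and 19.3, 20.4 and 20.8 on the 4W arrays and rose 4.04-fold, and Cdkn2b rose 2.69-fold. Trp53, the p53 gene, fell 2.51-fold and Rbl1 2.08-fold.

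Imprinted growth genes fell in 18 of 25 cases and rose in 4 (median -1.03, -0.76 with slide as a term and -0.75 within slide 2, and -0.65 with 2 genes at their bound). Mest, expressed from the paternal allele and tied to fat cell growth, had levels of 10.3, 9.95 and 9.62 on the P10 arrays and 0.25, 0.258 and 0.253 on the 4W arrays and fell 39.3-fold (log2 -5.30 ± 0.046). Dlk1, which holds preadipocytes undifferentiated, had 36.7, 33.8 and 35.1 on the P10 arrays and 3.30, 3.44 and 3.71 on the 4W arrays and fell 10.1-fold (log2 -3.34 ± 0.082). Igf2, the fetal growth factor, had 1.08, 2.00 and 1.94 on the P10 arrays and 0.0920, 0.162 and 0.0972 on the 4W arrays, with P10 replicate 1 lower than the other two, and fell 14.2-fold (log2 -3.83 ± 0.23). All P10 arrays lay above all 4W arrays. Plagl1, a factor of the imprinted gene network, fell 6.54-fold, Magel2 8.71-fold and Peg3 5.83-fold, while Cdkn1c rose 4.04-fold.

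Transcripts of several receptors and brakes of growth signalling changed. Ghr, the growth hormone receptor, had levels of 5.84, 5.07 and 5.04 on the P10 arrays and 26.9, 22.7 and 26.0 on the 4W arrays and rose 4.74-fold (log2 2.25 ± 0.081). Socs2, a feedback inhibitor of growth hormone signalling, had 1.1, 1.36 and 1.34 on the P10 arrays and 0.362, 0.365 and 0.386 on the 4W arrays and fell 3.40-fold (log2 -1.77 ± 0.078). The 2 ages did not overlap in either. Igf1, the growth factor downstream of that receptor, rose 1.91-fold, though its probes were called in both directions and their mean gave a log2 change of -0.073, and Igf1r fell 1.57-fold, except with scaling by the array median. Grb10, an imprinted inhibitor of insulin signalling, fell 3.79-fold, and the insulin receptor gene Insr rose 1.41-fold. Over the insulin and growth factor list 10 of 26 genes rose and 11 fell (median -0.21, -0.23 with slide as a term and -0.17 within slide 2, but 0.11 with scaling by the array median).

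Fetal regulators and progenitor genes fell more often than they rose. Of 16 fetal regulators 8 fell and 3 rose (median -0.51, -0.44 with slide as a term and -0.50 within slide 2). Mycn, a growth-promoting factor, had levels of 0.729, 0.787 and 0.748 on the P10 arrays and 0.0400, 0.0457 and 0.0646 on the 4W arrays. It fell 15.4-fold, but it was not well above background on 4W replicates 1 and 2, so that size is uncertain. Igf2bp3, an RNA-binding protein of fetal tissue, was at least 1.46-fold lower, and Sox4 fell 3.07-fold. Of 32 genes of progenitors and commitment 15 fell and 8 rose (median -0.28, -0.26 with slide as a term and -0.28 within slide 2, but 0.033 with scaling by the array median). Cd34 fell 3.37-fold and Sfrp4 3.15-fold, surface and secreted proteins of stromal cells, while Pi16, of a stromal progenitor, rose 2.24-fold.

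Tfrc, the transferrin receptor that brings iron into cells, was the only gene of the oxidative stress and metal list that fell, with levels of 67.1, 62.7 and 62.3 on the P10 arrays and 5.18, 5.17 and 5.20 on the 4W arrays and a change of 12.3-fold (log2 -3.63 ± 0.049). Its level had been 5.43 at E18 and 7.66 at P4, so the P10 arrays, the only ones with the female pattern, held its highest mean of the 5 ages. The other members rose or did not pass, 18 of 29 and 10 of 29 (median 0.45, 0.44 with slide as a term and 0.38 within slide 2). Mt2, a metallothionein, had 8.01, 6.52 and 6.62 on the P10 arrays and 71.1, 76.0 and 70.0 on the 4W arrays and rose 10.3-fold, Gpx3, a secreted glutathione peroxidase, 4.78-fold, and Gpx1 3.18-fold. Ftl1, the ferritin light chain, rose 2.10-fold, except in the series matrix.

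**Figure D4:**
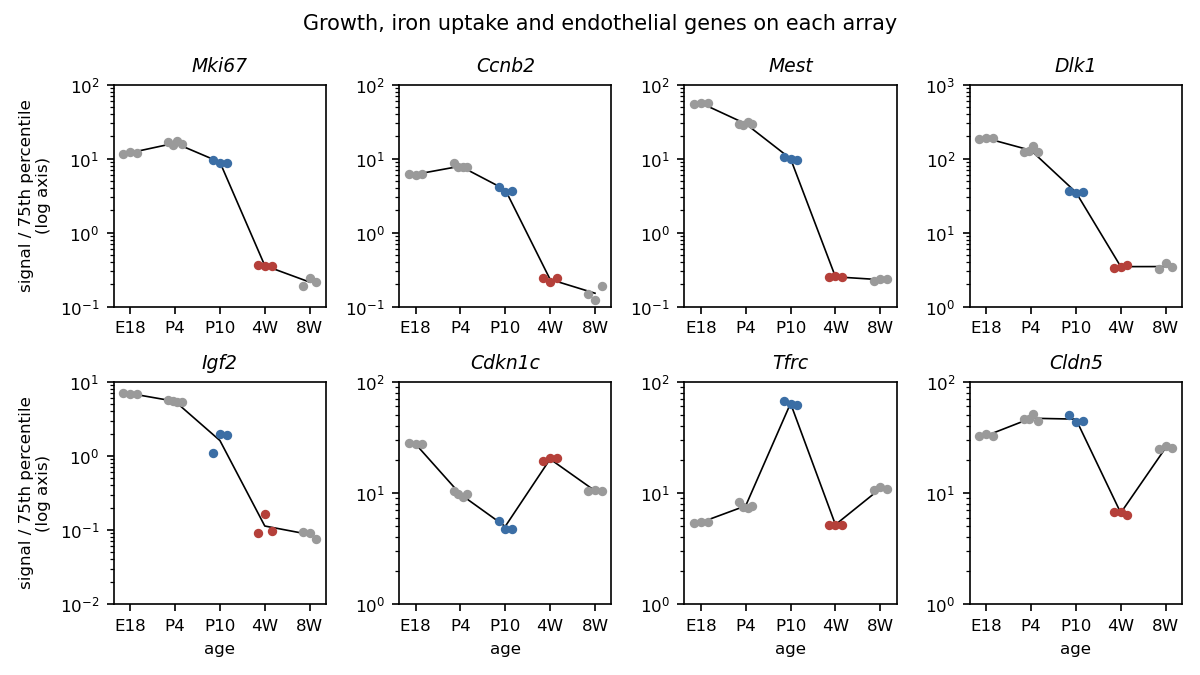
Level of 8 genes on each array (vertical log axis, signal divided by the array's 75th percentile) by age (horizontal axis). Points are arrays, blue for P10, red for 4W and grey for other ages, and lines join the age means of the log2 levels. Mki67, Ccnb2, Mest, Dlk1, Igf2, Tfrc and Cldn5 are lower on all 4W arrays than on all P10 arrays, and Cdkn1c is higher.

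Matrix and vessel genes fell together. Among collagens and other matrix genes 32 of 42 genes fell, 17 by at least 2-fold, and 3 rose (median -0.94, -0.94 with slide as a term and -0.92 within slide 2). Mmp14, a membrane collagenase, fell 4.30-fold, Col5a2 and Col15a1, of fibrillar and basement membrane collagen, 4.14-fold and 4.10-fold, and Fbn2, of elastic microfibrils, 3.66-fold. Col1a1, the main fibrillar collagen chain, had levels of 55.8, 54.0 and 53.0 on the P10 arrays and 20.0, 21.1 and 19.8 on the 4W arrays and fell 2.67-fold (log2 -1.42 ± 0.059). Loxl1, a crosslinking enzyme, rose 1.54-fold, and Dcn, decorin, did not pass (log2 0.082).

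Of 21 endothelial markers 17 fell and 2 rose (median -0.79, -0.81 with slide as a term and -0.91 within slide 2), and their summed level was 385 to 460 at P10 and 237 to 241 at 4W. Cldn5, a tight junction protein of vessels, had levels of 50.3, 43.9 and 44.6 on the P10 arrays and 6.78, 6.70 and 6.38 on the 4W arrays and fell 6.98-fold (log2 -2.80 ± 0.062), Aplnr, the apelin receptor of growing vessels, fell 4.53-fold, and Erg, an endothelial transcription factor, 2.87-fold. Pecam1 and Cdh5, which define the cell type, fell 1.85-fold and 2.06-fold. Plvap, of capillary pores, rose 1.85-fold.

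Nerve and Schwann cell markers fell in 10 of 17 cases and rose in 3 (median -0.87, -0.59 with slide as a term and -0.55 within slide 2, summed level 79.2 to 80.2 at P10 and 62.5 to 65.7 at 4W). Gap43, of growing axons, was at least 5.48-fold lower at 4W, Uchl1 at least 2.12-fold, and Egr2, a transcription factor of myelination, fell 3.47-fold. Th, the enzyme that makes catecholamines in sympathetic fibres, had levels of 1.22, 1.54 and 1.53 on the P10 arrays and 2.61, 2.83 and 2.68 on the 4W arrays and rose 1.90-fold (log2 0.93 ± 0.11).

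Immune genes did not move in one direction. In the interferon response list 19 of 29 genes fell and 3 rose (median -0.48, -0.54 with slide as a term and -0.56 within slide 2, and -0.17 with 11 falls when scaled by the array median). Cxcl10, a chemokine of that response, had levels of 1.27, 1.08 and 1.03 on the P10 arrays and 0.248, 0.231 and 0.265 on the 4W arrays and fell 4.54-fold. Isg15, a ubiquitin-like effector, had 12.8, 11.9 and 11.9 on the P10 arrays and 4.67, 4.26 and 4.83 on the 4W arrays and fell 2.67-fold. Every 4W array lay below the P10 arrays in both. Ifi44 fell 3.47-fold and Ifit2 3.39-fold. Ifi27l2a went the other way, with 19.8, 17.9 and 17.5 on the P10 arrays and 179.6, 102 and 172 on the 4W arrays and a rise of 7.97-fold (log2 2.99 ± 0.17), 4W replicate 2 lying below the other two.

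Antigen presentation rose in 14 of 21 genes and fell in 3 (median 0.50, 0.53 with slide as a term and 0.50 within slide 2). The rises were led by class II genes: H2-Eb1 rose 3.41-fold, H2-Aa, with 0.910, 0.784 and 0.803 on the P10 arrays and 2.66, 2.52 and 2.83 on the 4W arrays, 3.21-fold, and H2-Ab1 3.04-fold. Cd74, their chaperone, rose 2.57-fold. Tap1, Psmb9 and Psmb8, which feed peptides to class I and answer to interferon, fell 1.77-fold, 1.42-fold and 1.37-fold, the last 2 not with scaling by the array median. Of 18 macrophage markers, cells that carry class II, 12 rose and 2 fell (median 0.39, 0.30 with slide as a term and 0.25 within slide 2), while their summed level was 64.8 to 74.0 at P10 and 65.8 to 67.4 at 4W. The part of cell numbers in these changes was not tested.

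Lymphocyte markers fell in 14 of 20 cases and none rose (median -0.89, -0.86 with slide as a term and -1.01 within slide 2). With slide as a term 3 rose and 12 fell, within slide 2 1 rose and 11 fell, and with the array median 3 rose and 10 fell. The markers had a summed level of 22.8 to 25.7 at P10 and 17.1 to 17.7 at 4W. Among B cell genes Ms4a1, which encodes CD20, had 1.31, 1.24 and 1.14 on the P10 arrays and 0.0196, 0.0714 and 0.0397 on the 4W arrays and was at least 19.6-fold lower at 4W, and Cd79b fell 8.23-fold. The T cell genes Cd3e and Cd4 did not pass (log2 0.042 and 0.20), but Cd4 passed as a rise with slide as a term (log2 0.43), within slide 2 (0.56) and with scaling by the array median (0.51), and Cd3e with the last (0.35). Madcam1, the vessel addressin of lymphoid tissue, fell 10.1-fold. Of 14 genes of neutrophils and their precursors 8 fell and 2 rose (median -1.11, -0.94 with slide as a term, -0.91 within slide 2, -0.71 with quantile normalization and -0.97 with 4 genes at their bound), S100a9 from 5.96, 5.24 and 5.06 to 0.411, 0.419 and 0.456 on the arrays, a fall of 12.6-fold. Stfa1 and Cstdc5, stefin-family protease inhibitors, were at least 23.2-fold and 30.9-fold lower, and they have near-identical copies that may share signal.

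Skeletal muscle markers rose in 20 of 29 cases and 1 fell (median 0.82, 0.90 with slide as a term and 0.77 within slide 2), and none was below background on all arrays of either age. Tcap, a sarcomere protein, had levels of 6.01, 5.66 and 5.66 on the P10 arrays and 35.2, 32.7 and 33.6 on the 4W arrays and rose 5.86-fold. Myh4, the fastest myosin, had 11.7, 10.2 and 9.73 on the P10 arrays and 45.3, 47.8 and 43.8 on the 4W arrays and rose 4.34-fold, while Myh1, another fast myosin, had 15.2, 14.0 and 13.8 on the P10 arrays and 6.22, 5.15 and 6.71 on the 4W arrays and fell 2.39-fold. At 8W the mean levels of Tcap, Myh4 and Myh1 were 0.169, 0.0196 and 0.0187, far below those at P10 and 4W. Developing muscle genes fell in 7 of 13 cases and rose in 1 (median -0.77, -0.65 with slide as a term and -0.68 within slide 2, and -0.52 with 4 genes at their bound), and 6 were below background on all 4W arrays. Their summed level went the other way, from 37.0 to 41.5 at P10 to 67.8 to 75.3 at 4W, and was mostly that of Myh8, the perinatal myosin, which had 39.8, 35.2 and 35.8 on the P10 arrays and 68.4, 66.5 and 74.0 on the 4W arrays and rose 1.89-fold, a call that did not hold within slide 2 or in the series matrix.

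The circadian clock was among the lists with wide changes in both directions. The clock is a loop in which Arntl with Clock drives the Per, Cry and Nr1d genes, which then repress it, and tissue levels of these genes swing over the day. Of 18 genes 13 rose and 4 fell (median 1.06, 1.04 with slide as a term and 1.23 within slide 2). Arntl, which encodes BMAL1, had levels of 0.923, 0.865 and 0.849 on the P10 arrays and 0.0990, 0.0740 and 0.0977 on the 4W arrays and fell 9.82-fold (log2 -3.30 ± 0.09). Its repressor Nr1d1 had 0.658, 0.670 and 0.584 on the P10 arrays and 3.59, 3.45 and 3.79 on the 4W arrays and rose 5.67-fold (log2 2.50 ± 0.083). Dbp, an output gene of the loop, had 7.82, 6.55 and 7.24 on the P10 arrays and 83.1, 88.8 and 87.7 on the 4W arrays and rose 12-fold (log2 3.59 ± 0.09). The arrays of an age lay close together and the ages did not overlap. Bhlhe40 rose 9.81-fold, Ciart 9.44-fold, Per2 3.93-fold, Tef 3.39-fold and Per1 2.35-fold, while Nfil3 fell 1.64-fold. The call of Ciart ended within slide 2 (log2 3.09), and that of Nfil3 with scaling by the array median. The time of day at which each age was sampled does not appear in the labels, so age and sampling time cannot be told apart for these genes.

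Ciart, a clock-controlled repressor, is shown for its promoter, which holds the E-box CACGTG that Arntl and Clock bind. Of 20 RefSeq windows for 15 of the 18 clock genes 30% (6 windows) held that E-box, against 7.15% of all promoters. Among promoters of all genes tested the share was 8.89%. In the other lists it ran from 0%, as for matrix genes, to 27.3% (6 windows) for glycogen and glycerol. The stretch at chr3:95882219-95882348 (GRCm38.p6, minus strand) has E-boxes in capitals at -116, -58 and -44.
Ciart: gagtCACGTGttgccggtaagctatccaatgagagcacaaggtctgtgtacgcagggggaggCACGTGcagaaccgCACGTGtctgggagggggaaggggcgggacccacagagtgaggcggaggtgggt
For comparison, the stretch before Fasn at chr11:120824538-120824667 (GRCm38.p6, minus strand), with CCAAT boxes in capitals on either strand, has them at -90, -62 and -59, the last 2 overlapping. It held neither an E-box nor the sterol element TCACNCCAC. Of 23 windows for 18 of the 21 fatty acid synthesis genes 60.9% held a CCAAT box and 4.35%, which is 1 window, the sterol element, against 37.4% and 1.24% of all promoters. From so few windows the sterol element was as frequent in other lists, with 5.88% (2 windows) for glycolysis and 4.55% (1 window) for fatty acid oxidation.
Fasn: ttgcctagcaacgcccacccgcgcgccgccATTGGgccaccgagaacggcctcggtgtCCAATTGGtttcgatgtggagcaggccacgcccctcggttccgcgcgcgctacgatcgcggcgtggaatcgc

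Genes known as targets of glucocorticoids and thyroid hormone rose in 12 of 19 cases and fell in 3 (median 1.15, 1.02 with slide as a term and 1.05 within slide 2, and 0.98 with 1 gene at its bound). Klf15, a factor of amino acid and lipid use, had levels of 0.389, 0.330 and 0.321 on the P10 arrays and 5.92, 5.33 and 5.12 on the 4W arrays and rose 15.8-fold (log2 3.98 ± 0.12). Fkbp5, a cochaperone of the glucocorticoid receptor, had 1.13, 1.14 and 1.18 on the P10 arrays and 4.67, 4.96 and 5.04 on the 4W arrays and rose 4.24-fold, and Zbtb16 rose 7.55-fold. Hsd11b1, the enzyme that regenerates active glucocorticoid inside cells, lay outside these lists and had 0.541, 0.515 and 0.523 on the P10 arrays and 42.1, 43.2 and 44.4 on the 4W arrays, a rise of 82.2-fold (log2 6.36 ± 0.038). Other targets did not follow: Sgk1 and Dusp1 fell 1.32-fold and 1.31-fold, except with scaling by the array median (Dusp1 also not within slide 2), and Tat did not pass (log2 -0.25). Thrb, a thyroid hormone receptor, rose 2.08-fold.

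**Figure D5:**
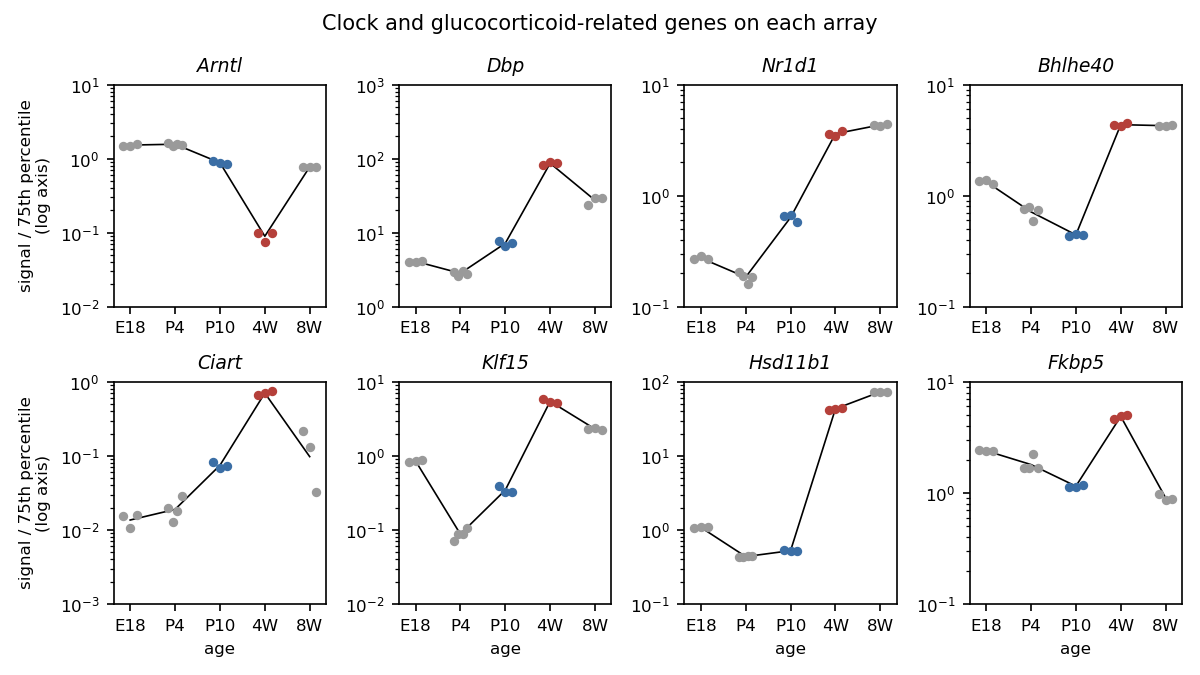
Level of 8 genes on each array (vertical log axis, signal divided by the array's 75th percentile) by age (horizontal axis). Points are arrays, blue for P10, red for 4W and grey for other ages, and lines join the age means of the log2 levels. Arntl is lower on all 4W arrays than on all P10 arrays, and Dbp, Nr1d1, Bhlhe40, Ciart, Klf15, Hsd11b1 and Fkbp5 are higher.

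Nuclear receptors rose in 15 of 30 cases and fell in 6 (median 0.21, 0.26 under either slide setting). With quantile normalization 13 rose and 12 fell, and in the series matrix 12 rose and 12 fell (median 0.11). Beside Nr1d1, Nr1h4, the bile acid receptor, rose 3.84-fold, Nr1d2 2.84-fold and Rxra, the shared partner of many receptors, 2.25-fold. Nr5a2 fell 6.38-fold and Vdr, the vitamin D receptor, 3.93-fold. The calls of Nr1h4 and Nr5a2 ended within slide 2, with log2 changes of 2.01 and -2.70.

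Enzymes of retinoid and xenobiotic metabolism held the largest rise of all genes that met the rule for naming the extremes. Of 32 genes 24 rose, 17 by at least 2-fold, and 2 fell (median 1.20, 1.14 under either slide setting). Cyp2b10, a cytochrome of drug metabolism, had levels of 0.0458, 0.0362 and 0.0256 on the P10 arrays and 26.5, 26.4 and 27.5 on the 4W arrays, was well above background on 2 of 3 P10 arrays and rose 768-fold (log2 9.58 ± 0.38). Cyp2e1, which oxidises ethanol and ketones, had 0.418, 0.397 and 0.338 on the P10 arrays and 25, 24.3 and 24.4 on the 4W arrays and rose 64.1-fold (log2 6.0 ± 0.19). Every 4W array lay above every P10 array in both. Gsta3, a glutathione transferase, rose 23.3-fold, Cyp1a1, not well above background at P10, was at least 6.24-fold higher, and Aldh1a1, which makes retinoic acid, rose 5.22-fold. Inmt, a methyltransferase outside the lists, had 0.178, 0.189 and 0.199 on the P10 arrays and 6.46, 6.36 and 7.21 on the 4W arrays and rose 35.4-fold. At 8W the mean level of Cyp2b10 was 1.54.

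Major urinary protein genes, carriers of pheromones made mainly in liver and more in males, were the other large rises. Mup18 had levels of 0.00722, 0.00679 and 0.0101 on the P10 arrays and 2.95, 2.75 and 2.99 on the 4W arrays and was at least 82.4-fold higher at 4W, and the lower bounds for Mup1 and Mup17 were 59.4-fold and 57.1-fold. Mup19 rose 62.3-fold and Mup20 was at least 17.1-fold higher. None of Mup18, Mup1 and Mup17 was well above background on a P10 array. These genes are so alike in sequence that one may be read by the probe of another. Their mean levels at E18 and 8W were 9.23 and 0.0792 for Mup18. Of the liver markers, Alb, Apoa1, Ttr, Ahsg, Hamp and Tdo2 were below the filter, and of the 8 tested 3 rose and none fell (median 0.19, 0.51 with slide as a term and 0.59 within slide 2), with a summed level of 35.2 to 38.4 at P10 and 303 to 334 at 4W. That sum was mostly the level of Hp, haptoglobin, which fat cells also make and which rose 10.3-fold. Apoa2 rose 2.16-fold. The part of liver RNA and of sex in the Mup change was not tested.

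The largest falls outside the groups above were Adamts17, a matrix protease that was at least 16.1-fold lower at 4W with levels of 1.01, 0.893 and 0.944 on the P10 arrays and 0.0185, 0.0486 and 0.0133 on the 4W arrays, and Stfa2l1, at least 9.90-fold lower. Pbk and Ska1, which serve mitosis, were at least 10.5-fold and 8.88-fold lower, and Pimreg, another mitotic gene, fell 31.1-fold.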

How the data were processed

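Per the labels, ISOGEN was used to extract the RNA and Cy3 to label it. The deposited scanner files hold intensity values, and those used are processed signals, background subtracted per the file headers. Feature Extraction is named as 11.5.1.1 in the headers, but as 11.0.1.1 in the submitters' processing notes. For an alternative, the authors' series matrix was taken, whose log2 values match these signals after quantile normalization.

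Each array has 62976 spots. Control spots (3671) were left out, 2720 marked spot values were set to missing, none was saturated, and spots of one probe were averaged. Of 55681 probes 27656 had a symbol through RefSeq accessions, and 28025 entered no result. Signals were taken as log2 minus the array's 75th percentile. Probes well above background on at least 3 of 16 arrays were kept, and the brightest kept probe stood for a gene. Of 4048 genes with several kept probes, 155 had probes called in both directions. X- and Y-linked genes were left out.

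Age was the sole term of a limma model over all 16 arrays (limma 3.58.1 in R 4.3.3), which was tested on simulated data. Tests were two-sided, with Benjamini-Hochberg adjustment over 15832 genes and a threshold of 0.05. A gene that was not well above background on any array of one age has only a bound: the bright age's mean against that of the dim age, where each array gives the lowest signal well above background or the probe's own, whichever is higher. Motifs were counted on both strands in RefSeq windows (GRCm38.p6); GGGCGG and TATAAA were also searched. The named genes are list members, those with the largest change first, the 12 that rose and the 12 that fell most among genes with no overlap between the ages that are well above background at the higher age, and the 10 others of highest level among those changed at least 2-fold. The members and lists were chosen with earlier results of these data known. Some list members that the rule would name are not reported here.

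The alternatives tried were scaling by quantiles or the median, the series matrix, normexp background correction (offset 50, on median pixels), 2 other filters on dim probes, the mean of a gene's probes, marked spots kept, slide as a term, slide 2 alone, a replicate block, the 6 arrays alone, array weights, a trended robust prior, X- and Y-linked genes kept, and each array left out.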

Additional observations from a re-analysis of the deposited data

How the results depend on the processing

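With scaling by the array median 6550 genes rose and 2006 fell, with 1609 rises and 913 falls of at least 2-fold, and the list medians moved to 1.94 for fatty acid synthesis, 0.90 for glucose uptake and glycolysis, 0.47 for the respiratory chain, 0.83 for thermogenic genes, -1.90 for cell division, -0.63 for matrix, -0.17 for interferon response and, across 0, to 0.11 for insulin and growth factor signalling. With quantile normalization they were 1.41, 0.33, -0.084 and 0.36 for the first 4 of these and -1.07 for matrix, and fatty acid oxidation turned to -0.14. In the series matrix they were 1.38, 0.31, -0.11, 0.33 and -1.07, fatty acid oxidation was -0.14, and Scd3 turned to -0.13 (-0.12 with quantile normalization). Cpt1b and Dcn turned to -0.25 and -0.25 with quantile normalization and to -0.22 and -0.28 in the series matrix. With scaling by the array median Acat1, Clock, Gpihbp1 and Hmgcs1 turned to 0.036, 0.051, 0.090 and 0.012. With normexp correction 1191 genes changed by at least 2-fold, 564 of them falls, and the medians were -1.69 for cell division, -0.74 for matrix and -0.40 for interferon response. With a filter for probes above background on every array 1184 changed by at least 2-fold, 573 of them falls, and the medians were 2.01 for fatty acid synthesis, -1.77 for cell division and 0.070 for insulin and growth factor signalling. With the mean of a gene's probes glycolysis was 0.79 and interferon response -0.57, and Igf1 and Sp110 turned to -0.073 and -0.029. With slide as a term Pklr turned to 0.97. Within slide 2 cell division was -2.32 and interferon response -0.56, also with array median scaling there (chosen after seeing the data), where 2804 genes fell. The causes were not tested. Without each array in turn 4384 to 5163 genes rose and 3691 to 4676 fell, both highest without P10 replicate 1. Of the named genes that passed, 233 of 235 kept their call with quantile normalization, 216 with the array median, 234 with slide as a term and 224 within slide 2. Of those that did not pass, 7, 8, 3 and 2 passed under these settings. Over all genes 6559 passed within slide 2 and 11000 with array weights, against 9121.

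The deviations of same-numbered arrays from their age means correlated by -0.105, 0.059 and -0.141. P10 replicates 2 and 3, both on slide 1, had nearly equal correlations with each 4W array. These values therefore cannot decide whether replicate numbers pair the arrays. With a replicate block 4752 genes rose and 4162 fell. No spot was saturated, and probes near background limit what can be said of falls: 11 of the 58 cell division genes were below background on all 4W arrays.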

Other observations

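Markers of mast cells fell as a list, while those of red blood cells, smooth muscle and white fat were divided. Of 15 red blood cell genes 5 fell, 2 rose and 8 did not pass (median -0.23, -0.16 with slide as a term, 0.020 within slide 2 and 0.077 with scaling by the array median), and Slc4a1, the anion exchanger of the red cell membrane, fell 5.05-fold. Of 9 mast cell genes 7 fell and none rose (median -0.67, -0.71 with slide as a term, -0.69 within slide 2 and -0.36 with scaling by the array median). Cma1 and Cpa3, proteases of their granules, fell 4.13-fold and 3.30-fold, and the summed level of the list was 9.23 to 9.40 at P10 and 5.08 to 5.57 at 4W. Smooth muscle and pericyte genes were divided, 6 of 13 up and 4 down (median 0.10, 0.14 with slide as a term and 0.23 within slide 2), with Cnn1 and Des, of contractile cells, up 4.08-fold and 2.28-fold and Abcc9, of pericytes, down 2.15-fold. Of 26 genes of protein synthesis and growth 4 rose, 5 fell and 17 did not pass (median -0.0059, -0.034 with slide as a term and -0.11 within slide 2, but -0.29 with 18 falls after quantile normalization and 0.30 after array-median scaling).

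Genes that favour white fat rose in 6 of 13 cases and fell in 4 (median 0.034, 0.30 with slide as a term and 0.25 within slide 2). Nnmt, a methyltransferase abundant in white fat, had levels of 1.18, 0.844 and 0.858 on the P10 arrays and 7.31, 7.30 and 7.29 on the 4W arrays and rose 7.69-fold (log2 2.94 ± 0.11), while Mest fell. Outside the lists, Sp110, Ubtf and Skint7 rose 2.20-fold, 2.01-fold and 2.17-fold at the probes used. Sp110 and Ubtf also have probes called in the other direction, and the mean of their probes did not pass. Short marker lists moved little in number. Of 7 skin and epithelium genes 1 rose and 1 fell (median -0.152, 0.078 with slide as a term and 0.143 within slide 2). Of 6 genes of thymus and lymph node stroma 2 rose and 2 fell (median -0.305, 0.297 and 0.585 in the same order). Both medians thus turned in sign under the slide settings. Of 5 cartilage and bone genes 2 rose and none fell (median 0.064, 0.227 and 0.092). Of 3 mesothelium genes 1 rose and 1 fell (median -1.65, -1.53 and -1.48).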
